A study of Arabidopsis thaliana with 12 samples.

Results

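The 42 *WRKY* genes described here, members of 1 plant transcription factor family, were taken from a count table of 34262 *Arabidopsis thaliana* genes by their gene identifiers. The identifiers were listed with earlier results of these data known. They were followed in whole seedlings of Col-0, the wild type, and of a line with the genotype pUBI10::mCherry-GR-linker-WUS, called WUS-GR below. In this line a ubiquitously active ubiquitin promoter drives the stem cell regulator WUSCHEL (WUS) joined to the hormone-binding part of the glucocorticoid receptor (GR). Dexamethasone (DEX) then lets the fusion protein enter the nucleus. Seedlings were used 5 days after germination and were kept for 2 h in 25 µM DEX, the dose that the sample labels give, either alone or together with 1 µM trichostatin A (TSA), which inhibits histone deacetylases. The 4 groups were Col-0 in DEX, WUS-GR in DEX, Col-0 in DEX and TSA, and WUS-GR in DEX and TSA, each with 3 libraries. All groups received DEX, and WUS-GR without DEX was not analysed here. The genotype contrast therefore holds the effect of active WUS together with any other difference between Col-0 and this 1 transgenic line, which makes WUS outside its normal domain.

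WRKY proteins carry a DNA-binding domain named after its amino acids W, R, K and Y. They bind the W-box, TTGACC or TTGACT, which is frequent in promoters of defence genes and of the *WRKY* genes themselves. The family is divided by the number of domains and the type of zinc finger into groups I, II and III, and group II is split further into IIa to IIe. Its members act as activators or repressors in responses to microbes, salicylic acid and phosphate supply and in leaf senescence.

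Total counts per library ran from 14810658 to 21578662, and levels are given as CPM, counts scaled to the TMM-normalised library size. *WUS* had 27 to 52 counts per library in the Col-0 groups and at least 94664 in WUS-GR. In WUS-GR its mean was 5088 CPM in DEX and 7919 CPM with TSA. By edgeR's test with TMM scaling it was higher with TSA (log2 fold change 0.62 ± 0.07, adjusted p = 6.99e-06). The part of this difference in the results with TSA was not tested. Root hair markers were absent or nearly so, with *COBL9* and *PRP3* at 0 counts in all libraries and *EXPA7* at 1 count or less, although the tissue was labelled as whole seedling. The endodermis gene *CASP1* was the remaining root marker. The 4 root markers summed to 1.12 to 3.02 CPM in Col-0 and 6.05 to 9.16 CPM in WUS-GR in DEX, and to 1.09 to 1.55 CPM and 10.7 to 18.2 CPM with TSA. The 3 photosynthetic shoot markers summed to 8128 to 14530 CPM in 3 of the groups and to 18970 to 19410 CPM in WUS-GR with TSA. *LHCB1.3* made up most of each sum. With TSA only *LHCB1.3* was called higher in WUS-GR by edgeR's test (log2 fold change 0.61, adjusted p = 0.000613). *RBCS1A* (0.08, adjusted p = 0.456) and *LHCB2.1* (0.24, adjusted p = 0.115) were not called. In DEX *LHCB1.3* (0.42) and *LHCB2.1* (0.82) were called higher, and *RBCS1A* (-0.22, adjusted p = 0.116) was not called. The part of these markers in the differences below was not tested. In whole seedlings fewer cells of a type and less RNA per cell cannot be told apart.

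The 300 bases before each annotated gene start (RefSeq, TAIR10.1) were searched on both strands for TTGACC or TTGACT. At least 1 such W-box stood before 20 of the 42 members (47.6%), against 32.3% of 27444 genes with such a window. The shorter core TTGAC, contained in each W-box, was found before 28 members (66.7%) and 50.4% of all genes. TTAATGG stood before 1 member, *WRKY4* (2.38%, against 8.04% of all genes), and CACGTG before 3 members (7.14%, against 7.09%). A match is a description of letters, not a binding site. The windows of *WRKY7*, *WRKY25*, *WRKY26* and *WRKY45* lay for 194 to 294 of their 300 bases inside a neighbouring gene. Those of *WRKY25*, *WRKY26* and *WRKY45* are among the windows with a W-box. Such overlaps were not removed for members or for all genes. *WRKY30* and *WRKY33* had 3 W-boxes each, the highest number among the members, while 7 members had 2, 11 had 1 and 22 had 0 in this window. The windows of *WRKY30* and *WRKY33* are printed for their 3 boxes, those of *WRKY11* and *WRKY17* as sister genes whose levels differed in direction, and that of *WRKY75* as the member with the largest fall. They are given 5′ to 3′ along the gene, with W-boxes in capitals, where AGTCAA and GGTCAA are the reverse complements.
WRKY30 (chr5:8154711-8155010, minus strand): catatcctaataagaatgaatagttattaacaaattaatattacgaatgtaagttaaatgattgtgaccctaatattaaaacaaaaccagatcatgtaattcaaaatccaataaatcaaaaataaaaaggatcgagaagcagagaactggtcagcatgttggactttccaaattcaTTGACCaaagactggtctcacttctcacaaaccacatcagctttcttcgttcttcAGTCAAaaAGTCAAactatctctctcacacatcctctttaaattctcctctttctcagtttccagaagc
WRKY33 (chr2:16107935-16108234, plus strand): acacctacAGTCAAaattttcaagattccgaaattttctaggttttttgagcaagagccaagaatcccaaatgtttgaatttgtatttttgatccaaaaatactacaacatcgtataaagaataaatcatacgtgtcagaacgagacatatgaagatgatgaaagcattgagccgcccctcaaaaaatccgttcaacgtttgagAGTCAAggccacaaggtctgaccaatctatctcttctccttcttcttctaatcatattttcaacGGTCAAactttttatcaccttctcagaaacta
WRKY11 (chr4:15291935-15292234, minus strand): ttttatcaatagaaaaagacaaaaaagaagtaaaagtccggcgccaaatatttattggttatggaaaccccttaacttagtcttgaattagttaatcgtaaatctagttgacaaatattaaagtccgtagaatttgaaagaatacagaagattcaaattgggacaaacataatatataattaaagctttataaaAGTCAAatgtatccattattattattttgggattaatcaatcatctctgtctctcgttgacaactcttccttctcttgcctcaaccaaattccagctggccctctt
WRKY17 (chr2:10439470-10439769, minus strand): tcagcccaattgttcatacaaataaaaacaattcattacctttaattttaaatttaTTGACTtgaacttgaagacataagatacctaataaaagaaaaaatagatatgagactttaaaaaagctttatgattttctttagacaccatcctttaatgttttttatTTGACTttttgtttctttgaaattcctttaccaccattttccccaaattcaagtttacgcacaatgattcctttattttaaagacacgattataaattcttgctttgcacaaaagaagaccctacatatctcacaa
WRKY75 (chr5:4151202-4151501, minus strand): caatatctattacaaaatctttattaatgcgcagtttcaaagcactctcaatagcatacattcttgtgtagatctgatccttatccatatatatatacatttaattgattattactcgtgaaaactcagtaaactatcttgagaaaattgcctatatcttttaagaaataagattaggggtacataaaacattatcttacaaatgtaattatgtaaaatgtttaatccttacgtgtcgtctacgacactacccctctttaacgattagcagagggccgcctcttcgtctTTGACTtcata
Counted back from -1, the last base before the gene start, the boxes begin at -124, -69 and -61 in *WRKY30*, at -292, -96 and -32 in *WRKY33*, at -106 in *WRKY11*, at -244 and -136 in *WRKY17* and at -11 in *WRKY75*.

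Of the 42 members, 35 passed the filter on low counts in at least 1 comparison and 31 in all 5. The 7 that passed in none were *WRKY31*, *WRKY38*, *WRKY41*, *WRKY51*, *WRKY54*, *WRKY60* and *WRKY62*. *WRKY31* and *WRKY51* reached 27 and 22 counts in their highest library, and the other 5 had at most 6 counts in any library. *WRKY38* and *WRKY62*, whose proteins are known to bind the histone deacetylase HDA19, had at most 4 and 1 counts, so a response of these 2 genes was not detectable at this depth. *WRKY54*, which acts with *WRKY70* in salicylic acid signalling, had at most 5 counts. *WRKY72*, a gene of basal defence, had 1, 9 and 45 counts in Col-0 and 10, 20 and 0 counts in WUS-GR in DEX, a spread within groups that left its difference uncalled (log2 fold change -0.99 ± 0.99, adjusted p = 0.413). Of the tested members, *WRKY1*, *WRKY4*, *WRKY29*, *WRKY33*, *WRKY40*, *WRKY53* and *WRKY69* overlap a gene on the opposite strand by 51 to 373 bases. The strand setting of the counting is not given in the sources used here, so their counts may hold reads of those neighbours.

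Per kilobase of exon, the scale on which levels of different genes can be compared, *WRKY15* had the highest mean in Col-0 in DEX (310.4 CPM per kb), before *WRKY22* (269), *WRKY25* (263) and *WRKY33* (249 CPM per kb). In WUS-GR in DEX the order of these levels was *WRKY33* (325 CPM per kb), *WRKY22* (317), *WRKY25* (265) and *WRKY15* (204 CPM per kb). With TSA *WRKY40* led in Col-0 (269.7 CPM per kb) and *WRKY33* in WUS-GR (363 CPM per kb). These orders are of means and were not tested.

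**Figure D1:**
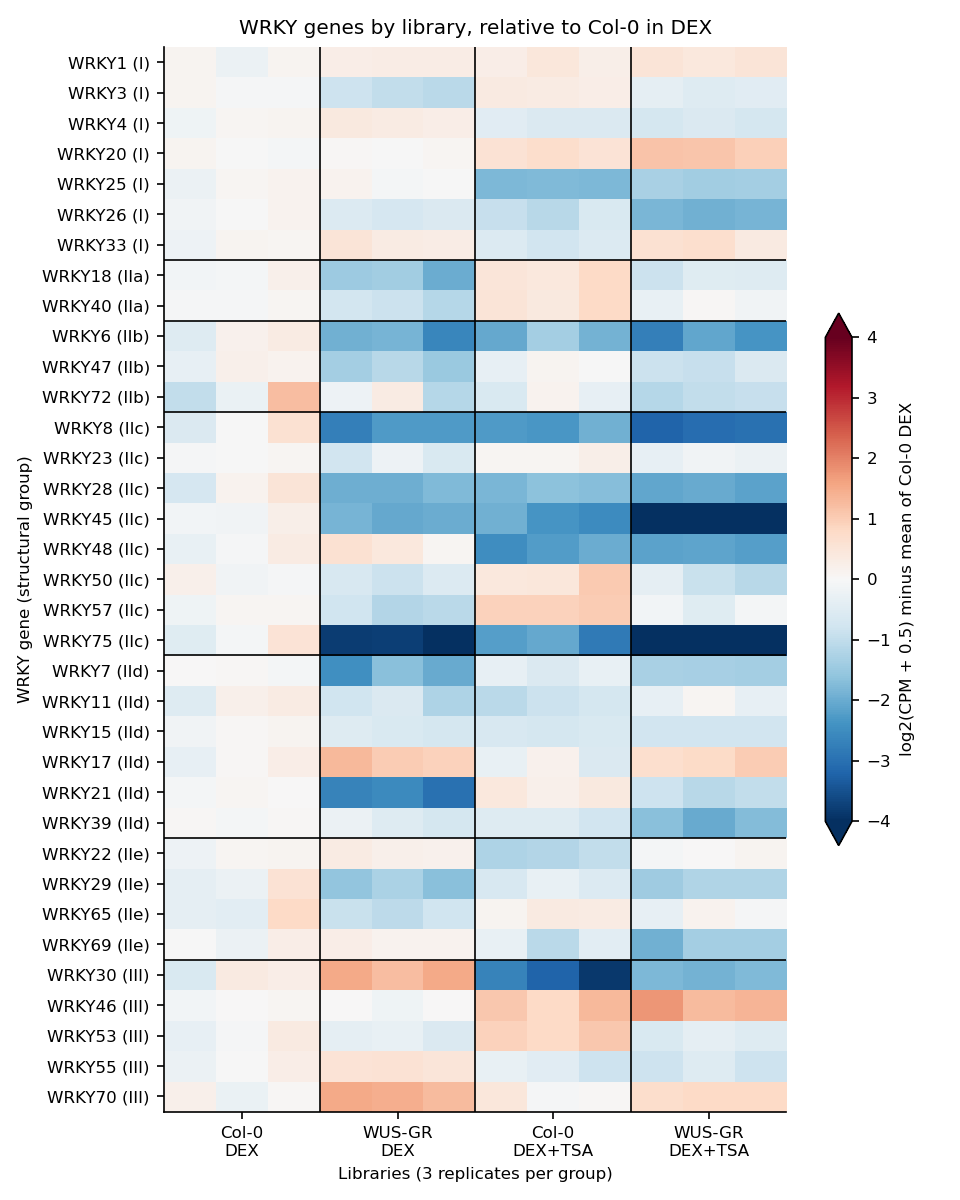
Level of the 35 tested *WRKY* genes (vertical axis, with structural group) in the 12 libraries (horizontal axis), as log2(CPM + 0.5) minus the mean of the 3 Col-0 libraries in DEX. Red is above and blue below Col-0 in DEX, and colours end at 4 in either direction. *WRKY75* and *WRKY45* are darkest in WUS-GR with TSA, and *WRKY30* is red in WUS-GR in DEX and blue in both TSA groups.

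The first comparison set WUS-GR against Col-0 in DEX and so asked how active WUS altered the family. More members were lower than higher. Of 34 members tested, 27 had an adjusted p under 0.05 in edgeR's quasi-likelihood test (57.9% of all genes tested did). Lower were 19 members (28.6% of all genes) and higher were 8 (29.3% of all genes). The median log2 fold change was -0.76 over the members and 0.02 over all genes. By structure, 6 of 8 tested genes of group IIc, 5 of 6 of group IId and 2 of 2 of group IIa were lower, whereas in group III 3 of 4 were higher and 0 lower. The number of higher members was 5 with the replicate number as a block. It was also 5 without Col-0 replicate 2, without WUS-GR replicate 1 or without WUS-GR replicate 2. In these fits fewer genes were called in all, 8617 to 9155 against 10002 in the main fit. Of the genes called, 49.0% to 50.3% were higher, against 50.6% in the main fit.

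*WRKY75* (AT5G13080) and *WRKY45* (AT3G01970), which act in phosphate acquisition and senescence, fell together. *WRKY75* had 22.7, 30.1 and 46.3 CPM in Col-0 against 1.84, 1.84 and 1.5 CPM in WUS-GR, which is 18.8-fold lower (log2 fold change -4.24 ± 0.28, adjusted p = 1.35e-06). *WRKY45* had 117, 116 and 151 CPM in Col-0 against 34.3, 30.1 and 31.6 CPM in WUS-GR (log2 fold change -1.98 ± 0.11, adjusted p = 6.46e-07). In both genes the lowest Col-0 library lay above the highest WUS-GR library. *WRKY6* (AT1G62300), a senescence factor that represses the phosphate exporter gene *PHO1*, had 42.1, 67.5 and 75.9 CPM in Col-0 against 15.5, 16.3 and 9.5 CPM in WUS-GR (log2 fold change -2.15 ± 0.24, adjusted p = 4.36e-05). *WRKY47*, of the same group IIb and known from boron responses, was lower by a smaller amount (log2 fold change -1.42 ± 0.18, adjusted p = 8.85e-05).

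Other genes of group IIc were also lower. *WRKY28* (AT4G18170), an activator of salicylic acid synthesis, had 17, 30.3 and 39.7 CPM in Col-0 against 6.75, 6.66 and 7.78 CPM in WUS-GR (log2 fold change -2.02 ± 0.26, adjusted p = 0.000109). *WRKY8*, known from virus infection and salt stress, had 41, 86 and 136 counts in Col-0 against 4, 10 and 10 counts in WUS-GR (log2 fold change -3.57 ± 0.43, adjusted p = 6.72e-05), and its groups lay far apart at low counts. *WRKY57*, a gene of drought tolerance, fell by less (log2 fold change -1.32 ± 0.23, adjusted p = 0.00081), as did *WRKY50*, which acts where salicylic acid represses jasmonate responses (log2 fold change -0.84 ± 0.23, adjusted p = 0.0102). The auxin-responsive *WRKY23* had 1.62, 1.67 and 1.79 CPM in Col-0 against 0.781, 1.4 and 0.928 CPM in WUS-GR. Its groups did not overlap, but its difference narrowly missed the threshold (log2 fold change -0.68 ± 0.27, adjusted p = 0.054) and passed it without WUS-GR replicate 2 (adjusted p = 0.0213), with DESeq2's size factors, in a single fit of all libraries and with 10 counts required in every library (adjusted p = 0.0218 to 0.0492). For *WRKY48*, a repressor of basal defence, the groups overlapped (log2 fold change 0.39 ± 0.18, adjusted p = 0.0846), and the difference was called without Col-0 replicate 3 or WUS-GR replicate 3 (adjusted p = 0.0111 and 0.0341).

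Group IId proteins bind calmodulin, and in this group close relatives differed. *WRKY21* had 52.7, 58.1 and 55.6 CPM in Col-0 against 8.36, 9.16 and 6.63 CPM in WUS-GR (log2 fold change -2.76 ± 0.12, adjusted p = 1.33e-07). *WRKY7*, a repressor of basal defence, had 25.3, 25.9 and 23.4 CPM in Col-0 against 4.13, 7.45 and 5.75 CPM in WUS-GR (log2 fold change -2.08 ± 0.17, adjusted p = 5.17e-06). Smaller falls were seen in *WRKY15* (log2 fold change -0.58 ± 0.09, adjusted p = 0.000348) and *WRKY39* (log2 fold change -0.46 ± 0.12, adjusted p = 0.0067). *WRKY11* (AT4G31550) and *WRKY17* (AT2G24570) are sister genes that together restrain basal resistance, and they differed in direction. *WRKY11* was lower, with 49.6, 81.2 and 88.3 CPM in Col-0 against 40.9, 47.4 and 29.8 CPM in WUS-GR (log2 fold change -0.87 ± 0.22, adjusted p = 0.00625). *WRKY17* was higher, with 3.74, 4.91 and 5.9 CPM in Col-0 against 12.4, 10.08 and 9.46 CPM in WUS-GR (log2 fold change 1.14 ± 0.17, adjusted p = 0.000335). The groups did not overlap in either gene.

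*WRKY18* (AT4G31800) and *WRKY40* (AT1G80840), the group IIa pair that limits resistance to biotrophic pathogens, were both lower in WUS-GR. *WRKY18* had 54.2, 55.7 and 67.7 CPM in Col-0 against 21.2, 22.3 and 14.6 CPM in WUS-GR (log2 fold change -1.59 ± 0.15, adjusted p = 1.6e-05). *WRKY40* had 232, 234 and 257 CPM in Col-0 against 146, 133 and 109.8 CPM in WUS-GR (log2 fold change -0.87 ± 0.11, adjusted p = 7.39e-05). Their relative *WRKY60* had 0 to 5 counts in these libraries and was not tested.

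*WRKY22* (AT4G01250) and *WRKY29* (AT4G23550) are known together from the MAP kinase pathway of the flagellin response. *WRKY29* was lower, with 8.11, 8.93 and 15.8 CPM in Col-0 against 3.17, 4.12 and 2.92 CPM in WUS-GR (log2 fold change -1.67 ± 0.26, adjusted p = 0.000425). *WRKY22* was slightly higher, with 309, 378 and 384 CPM in Col-0 against 450.0, 411 and 401 CPM in WUS-GR (log2 fold change 0.26 ± 0.10, adjusted p = 0.0422). That call was lost in 5 of 6 fits that each dropped a single library (adjusted p = 0.0505 to 0.145) and was kept without Col-0 replicate 3, and it was also lost with the replicate block (adjusted p = 0.0827) and with DESeq2's size factors (adjusted p = 0.0588). *WRKY65*, of the same group IIe, was lower (log2 fold change -1.5 ± 0.46, adjusted p = 0.0179). Without Col-0 replicate 3, its highest library, its log2 fold change was -0.78 (adjusted p = 0.0656), and the call was also lost without WUS-GR replicate 2 (adjusted p = 0.0606). *WRKY69* was not called (log2 fold change 0.20 ± 0.15, adjusted p = 0.302).

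In group I, *WRKY33* (AT2G38470), which is needed for resistance to necrotrophic fungi and for camalexin synthesis, was higher in WUS-GR. It had 437, 544 and 534 CPM in Col-0 against 723, 632 and 624 CPM in WUS-GR (log2 fold change 0.41 ± 0.10, adjusted p = 0.00691). *WRKY25* and *WRKY26* act with *WRKY33* in heat tolerance. *WRKY25* (AT2G30250) had 399, 487 and 517 CPM in Col-0 against 509, 445 and 459 CPM in WUS-GR, overlapping groups without a call (log2 fold change 0.03 ± 0.10, adjusted p = 0.805). *WRKY26* (AT5G07100) was lower, with 249, 271 and 302 CPM in Col-0 against 186, 172 and 183 CPM in WUS-GR (log2 fold change -0.58 ± 0.09, adjusted p = 0.000295). *WRKY3* and *WRKY4*, both known from resistance to necrotrophs, were called in opposite directions, *WRKY3* lower (log2 fold change -0.97 ± 0.10, adjusted p = 3.07e-05) and *WRKY4* higher (log2 fold change 0.34 ± 0.09, adjusted p = 0.00727). *WRKY1* was called higher (log2 fold change 0.31 ± 0.11, adjusted p = 0.0357). This call was lost with the replicate block (adjusted p = 0.0577), with DESeq2 (adjusted p = 0.0972) and without Col-0 replicate 2 or any 1 of the WUS-GR libraries (adjusted p = 0.0684 to 0.148). *WRKY20* was not called (log2 fold change 0.06 ± 0.08, adjusted p = 0.551).

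Among the 42 members, group III held 2 of the 3 largest rises. *WRKY70* (AT3G56400), which joins salicylic and jasmonic acid signalling and delays senescence, had 6.61, 4.58 and 5.9 CPM in Col-0 against 17, 16.2 and 14.1 CPM in WUS-GR (log2 fold change 1.5 ± 0.14, adjusted p = 1.39e-05). *WRKY30* (AT5G24110) had 22.9, 45.6 and 42.3 CPM in Col-0 against 102, 83.8 and 103 CPM in WUS-GR (log2 fold change 1.40 ± 0.21, adjusted p = 0.000309). Both rises were larger than the spread between replicates. *WRKY55* rested on few reads, with 4, 8 and 12 counts in Col-0 against 17, 19 and 17 counts in WUS-GR (log2 fold change 0.97 ± 0.35, adjusted p = 0.0378). Its call was lost in 5 of 6 fits that dropped 1 library each (adjusted p = 0.0726 to 0.118), kept without Col-0 replicate 3, and was lost with DESeq2 (adjusted p = 0.166), the replicate block, a single fit of all libraries and no filter. *WRKY46*, an activator of salicylic acid signalling, had 0.748, 0.879 and 0.943 CPM in Col-0 against 0.873, 0.701 and 0.884 CPM in WUS-GR and was not called (log2 fold change -0.05 ± 0.27, adjusted p = 0.886). *WRKY53*, a promoter of leaf senescence, had 3 to 15 counts here and was not tested.

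The same contrast in the presence of TSA asked whether the WUS response held when histone deacetylases were inhibited. Of 32 members tested, 25 passed the threshold (54.8% of all genes), 17 of them lower (27.8% of all genes) and 8 higher (27% of all genes). The median log2 fold change was -0.58 over the members and -0.01 over all genes. Scaling by library totals alone moved the median of all genes to -0.24 and gave 21 lower and 6 higher members. With that scaling 9795 of 16873 genes were called, 28.3% of them higher. Of the 31 members tested in both genotype contrasts, which share no library, 15 were lower in both (17.4% of all genes) and 5 higher in both (17% of all genes), namely *WRKY17*, *WRKY22*, *WRKY30*, *WRKY33* and *WRKY70*. The single member called in opposite directions was *WRKY11* (3.45% of all genes were).

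*WRKY75* was again lower under TSA, with 6.52, 7.34 and 4.06 CPM in Col-0 against 0.885, 0.622 and 0.48 CPM in WUS-GR (log2 fold change -3.14 ± 0.31, adjusted p = 3.67e-06). Its values in WUS-GR here rest on 6 to 15 counts per library. *WRKY45* had 33.1, 24.6 and 21.8 CPM in Col-0 against 4.72, 3.51 and 3.52 CPM in WUS-GR (log2 fold change -2.76 ± 0.18, adjusted p = 1.41e-07). *WRKY53* could be tested here and had 23, 22 and 31 counts in Col-0 against 2, 4 and 2 counts in WUS-GR (log2 fold change -2.88 ± 0.41, adjusted p = 7.8e-05), with few reads in WUS-GR. The pair *WRKY18* (log2 fold change -1.21 ± 0.13, adjusted p = 6.11e-06) and *WRKY40* (log2 fold change -0.70 ± 0.12, adjusted p = 0.000248) was lower as it was without TSA. *WRKY50* (log2 fold change -1.76 ± 0.30, adjusted p = 0.000324) and *WRKY39* (log2 fold change -1.28 ± 0.13, adjusted p = 5.8e-06) were lower as well. The fall of *WRKY6* (log2 fold change -0.66 ± 0.20, adjusted p = 0.0129) was not called without Col-0 replicate 2 (-0.42, adjusted p = 0.0742) or WUS-GR replicate 1 (-0.49, adjusted p = 0.0712). That of *WRKY28* (log2 fold change -0.39 ± 0.14, adjusted p = 0.0294) was lost in 5 of 6 such fits (adjusted p = 0.0581 to 0.0876), kept without Col-0 replicate 1, and was lost with DESeq2 (adjusted p = 0.111). *WRKY23* missed the threshold (log2 fold change -0.51 ± 0.24, adjusted p = 0.0945) and passed it with library totals (-0.73, adjusted p = 0.0195).

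Among the rises, *WRKY30* had 5.14, 3.41 and 1.98 CPM in Col-0 against 9.74, 9.27 and 10.08 CPM in WUS-GR (log2 fold change 1.47 ± 0.25, adjusted p = 0.000286), a ratio like that without TSA at a far lower level. *WRKY33* had 343, 295 and 346 CPM in Col-0 against 765, 798 and 644 CPM in WUS-GR (log2 fold change 1.15 ± 0.10, adjusted p = 1.85e-06). *WRKY22* had 149.9, 159 and 179.7 CPM in Col-0 against 336, 356 and 379.5 CPM in WUS-GR (log2 fold change 1.12 ± 0.09, adjusted p = 8.62e-07), and here its groups lay well apart. *WRKY17* was higher again (log2 fold change 1.10 ± 0.20, adjusted p = 0.000545). *WRKY11* now was higher too, with 33.6, 39.3 and 43.8 CPM in Col-0 against 56.3, 74.4 and 56.3 CPM in WUS-GR (log2 fold change 0.67 ± 0.13, adjusted p = 0.000775). *WRKY25* was higher (log2 fold change 0.43 ± 0.08, adjusted p = 0.000463). The rises of *WRKY70* (log2 fold change 0.62 ± 0.16, adjusted p = 0.00495) and *WRKY20* (log2 fold change 0.46 ± 0.10, adjusted p = 0.0013) missed the threshold with library totals (adjusted p = 0.0525 and 0.0593).

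**Figure D2:**
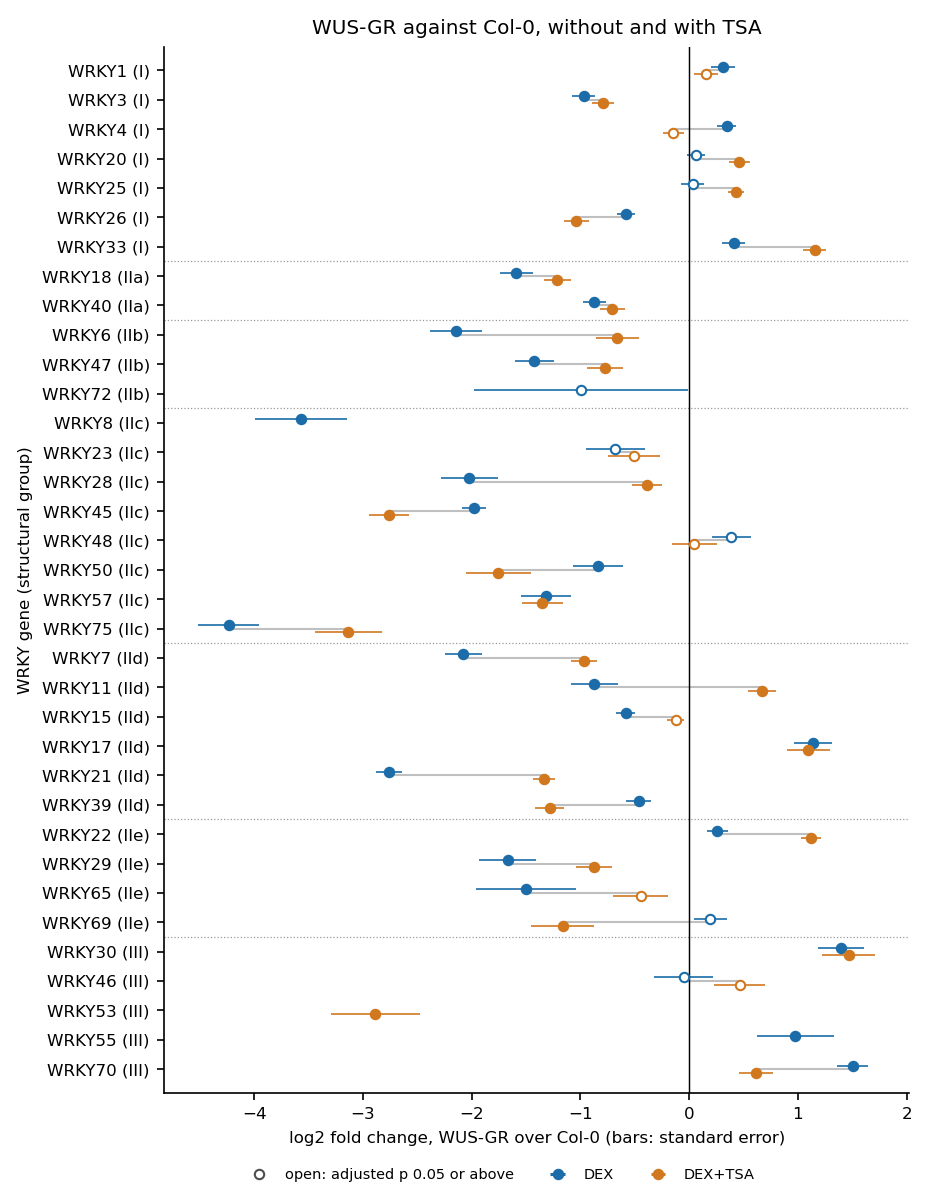
Log2 fold change of WUS-GR over Col-0 (horizontal axis, bars are standard errors, n = 3 per group) for each tested *WRKY* gene (vertical axis, with structural group) in DEX (blue) and in DEX with TSA (orange). Open symbols have an adjusted p of 0.05 or above. *WRKY75* lies farthest to the left in both treatments, at -4.24 and -3.14, and *WRKY11* crosses 0 from -0.87 to 0.67.

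The effect of TSA itself was first read in wild type. In Col-0, 28 of 33 tested members passed the threshold (64.2% of all genes), 18 lower (32.5% of all genes) and 10 higher (31.7% of all genes). The median log2 fold change was -0.54 over the members, against 0.00397 over all genes. The 3 Col-0 libraries in DEX are also the reference of the first comparison, so these 2 contrasts are not independent. *WRKY30* fell most, with 22.9, 45.6 and 42.3 CPM in DEX against 5.14, 3.41 and 1.98 CPM in TSA (log2 fold change -3.41 ± 0.31, adjusted p = 2.6e-06), a 10.7-fold difference. *WRKY8* had 41, 86 and 136 counts in DEX against 8, 8 and 15 counts in TSA (log2 fold change -3.04 ± 0.39, adjusted p = 3.79e-05). *WRKY75* (log2 fold change -2.47 ± 0.26, adjusted p = 9.03e-06), *WRKY48* (log2 fold change -2.41 ± 0.20, adjusted p = 1.4e-06) and *WRKY45* (log2 fold change -2.27 ± 0.16, adjusted p = 3.36e-07) followed.

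Of the heat tolerance genes, *WRKY25* had 399, 487 and 517 CPM in DEX against 134, 136 and 134 CPM in TSA (log2 fold change -1.79 ± 0.11, adjusted p = 1.23e-07). *WRKY26* (log2 fold change -0.86 ± 0.13, adjusted p = 0.00012) and *WRKY33* (log2 fold change -0.62 ± 0.11, adjusted p = 0.000438) were lower by less. *WRKY6* (log2 fold change -1.80 ± 0.22, adjusted p = 2.55e-05), *WRKY28* (log2 fold change -1.87 ± 0.25, adjusted p = 4.63e-05) and *WRKY22* (log2 fold change -1.13 ± 0.11, adjusted p = 4.54e-06) were also lower. *WRKY29* was the single called member whose groups overlapped. Its call (log2 fold change -0.58 ± 0.23, adjusted p = 0.0459) was lost without Col-0 in DEX replicate 3 (-0.21, adjusted p = 0.283) and without any 1 of the TSA libraries (adjusted p = 0.0526 to 0.129). That of *WRKY69* (log2 fold change -0.64 ± 0.23, adjusted p = 0.0321) was lost without Col-0 in DEX replicate 3 or Col-0 with TSA replicate 2 (adjusted p = 0.108 and 0.111).

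The members that rose with TSA in Col-0 included both tested genes of group IIa and, in group III, *WRKY46* and *WRKY53*. *WRKY46* had 0.748, 0.879 and 0.943 CPM in DEX against 2.38, 1.83 and 2.83 CPM in TSA (log2 fold change 1.45 ± 0.28, adjusted p = 0.000761). *WRKY53* had 4, 9 and 15 counts in DEX against 23, 22 and 31 counts in TSA (log2 fold change 1.44 ± 0.38, adjusted p = 0.00556). *WRKY57* rose as well (log2 fold change 1.08 ± 0.18, adjusted p = 0.000244). *WRKY18* had 54.2, 55.7 and 67.7 CPM in DEX against 83, 78.9 and 104 CPM in TSA (log2 fold change 0.58 ± 0.12, adjusted p = 0.00148), and *WRKY40* had 232, 234 and 257 CPM in DEX against 341, 314 and 417 CPM in TSA (log2 fold change 0.57 ± 0.11, adjusted p = 0.000803), without overlap in either gene. *WRKY1* (log2 fold change 0.34 ± 0.13, adjusted p = 0.0413) lost its call with the replicate block (adjusted p = 0.0517), with DESeq2 (adjusted p = 0.076), with library totals (adjusted p = 0.122) and without Col-0 in DEX replicate 2 or Col-0 with TSA replicate 1 or 2 (adjusted p = 0.0628 to 0.197). *WRKY3* (log2 fold change 0.34 ± 0.10, adjusted p = 0.0101) lost it without Col-0 in DEX replicate 2 (adjusted p = 0.0553). *WRKY50* (log2 fold change 0.80 ± 0.24, adjusted p = 0.0126) lost it without that library or Col-0 with TSA replicate 3 (adjusted p = 0.0529 and 0.0662).

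In WUS-GR, TSA changed 24 of 32 tested members (73.7% of all genes), 13 lower (38.1% of all genes) and 11 higher (35.6% of all genes). The members' median log2 fold change of -0.15 stood beside -0.03 over all genes. Library totals alone put the median of all genes at -0.41 and gave 17 lower and 7 higher members. With them 13065 of 17079 genes were called, 29.5% of them higher. Of 31 members tested for TSA in both genotypes, in contrasts that share no library, 11 were lower in both (26.2% of all genes) and 7 higher in both (25% of all genes). *WRKY7* and *WRKY11* were called in opposite directions (3.15% of all genes were).

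*WRKY30* fell in WUS-GR too, with 102, 83.8 and 103 CPM in DEX against 9.74, 9.27 and 10.08 CPM in TSA (log2 fold change -3.33 ± 0.10, adjusted p = 3.58e-10), so that TSA lowered it by 10-fold in WUS-GR. *WRKY45* (log2 fold change -3.04 ± 0.12, adjusted p = 1.77e-09), *WRKY48* (log2 fold change -2.74 ± 0.16, adjusted p = 2.56e-08), *WRKY69* (log2 fold change -1.99 ± 0.20, adjusted p = 2.11e-06) and *WRKY25* (log2 fold change -1.38 ± 0.08, adjusted p = 1.5e-08) were lower. *WRKY55* had 53 counts summed over the WUS-GR libraries in DEX and 2 with TSA, a ratio of 18.6 with a 95% interval of 4.9 to 157 that covers counting error only. *WRKY21* rose, with 8.36, 9.16 and 6.63 CPM in DEX against 30.8, 25.6 and 27.8 CPM in TSA (log2 fold change 1.78 ± 0.12, adjusted p = 9.99e-08). *WRKY46* (log2 fold change 1.98 ± 0.25, adjusted p = 1.57e-05) and *WRKY65* (log2 fold change 1.24 ± 0.29, adjusted p = 0.00217) rose as well. *WRKY18* (log2 fold change 0.97 ± 0.15, adjusted p = 8.6e-05) and *WRKY40* (log2 fold change 0.75 ± 0.11, adjusted p = 6.92e-05) rose as they had in Col-0. *WRKY70* had 17, 16.2 and 14.1 CPM in DEX against 9.5, 10.12 and 10.2 CPM in TSA and was lower with TSA (log2 fold change -0.69 ± 0.10, adjusted p = 8.45e-05).

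Several differences of this contrast moved with the scaling or with 1 library. With library totals the rises of *WRKY3* (0.52), *WRKY7* (0.71), *WRKY11* (0.65) and *WRKY47* (0.57) became 0.14, 0.33, 0.26 and 0.18 on the log2 scale and were not called (adjusted p = 0.241, 0.12, 0.16 and 0.347). The call of *WRKY15* (log2 fold change -0.18 ± 0.07, adjusted p = 0.0378) was lost in 5 of 6 fits that dropped 1 library each (adjusted p = 0.0645 to 0.161), kept without WUS-GR in DEX replicate 3, and was lost with DESeq2 (adjusted p = 0.0845). *WRKY22* (log2 fold change -0.26 ± 0.07, adjusted p = 0.0076) lost its call without WUS-GR in DEX replicate 1 (adjusted p = 0.0514). *WRKY17* (log2 fold change -0.30 ± 0.14, adjusted p = 0.0654) was called lower without WUS-GR in DEX replicate 3 or WUS-GR with TSA replicate 3 (adjusted p = 0.036 and 0.0353), with library totals (-0.68, adjusted p = 0.000697) and with 10 counts required in every library (adjusted p = 0.0452).

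**Figure D3:**
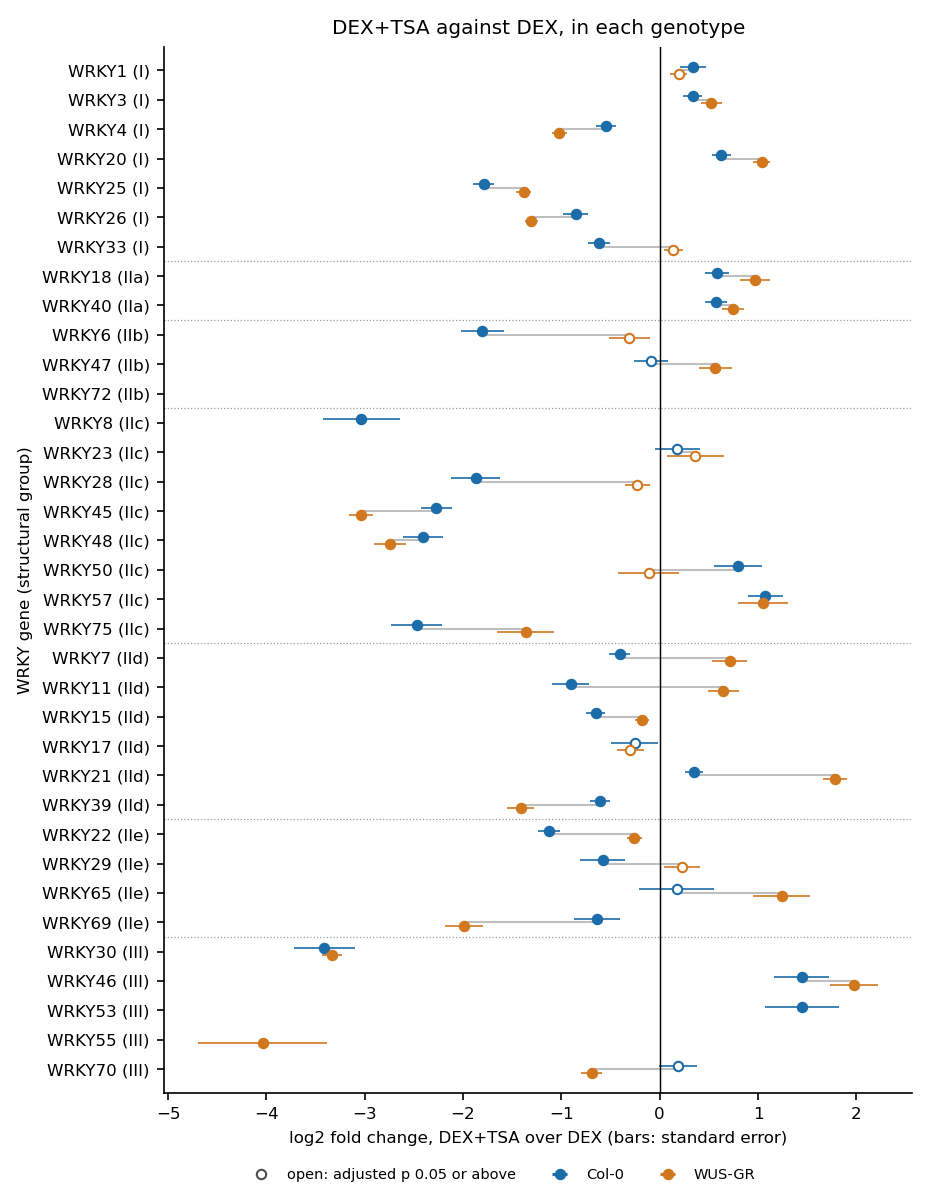
Log2 fold change of DEX with TSA over DEX (horizontal axis, bars are standard errors, n = 3 per group) for each tested *WRKY* gene (vertical axis, with structural group) in Col-0 (blue) and in WUS-GR (orange). Open symbols have an adjusted p of 0.05 or above. *WRKY30* sits at -3.41 and -3.33 in Col-0 and WUS-GR, whereas *WRKY21* moves from 0.35 to 1.78.

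Whether TSA altered the genotype difference was tested as the product of genotype and treatment in a fit of all 12 libraries. For *WUS* itself this product was 0.72 ± 0.185 on the log2 scale (adjusted p = 0.0078 by edgeR's test). With TMM scaling the *WUS* level in WUS-GR was therefore not equal with and without TSA, and its part in the calls below was not tested. TMM factors were 1.11 to 1.13 in WUS-GR in DEX and 0.84 to 0.85 in WUS-GR with TSA. Values of *WUS* with library totals are not given here, so the dependence of this difference on the scaling is not shown. The product passed the threshold for 16 of 35 members (31% of all genes). In 10 of them the ratio of WUS-GR to Col-0 was higher with TSA (17.7% of all genes), and in 6 it was lower (13.3% of all genes). With library totals, which put the median of all genes at -0.32, these numbers were 7 and 9. Of all 17915 genes 7306 were then called, 21.5% of them higher. The highest values, on the log2 scale, were those of *WRKY28* (1.67 ± 0.32, adjusted p = 0.00112), *WRKY11* (1.58 ± 0.28, adjusted p = 0.000571) and *WRKY6* (1.52 ± 0.35, adjusted p = 0.00429). *WRKY21* (1.46 ± 0.15, adjusted p = 6.59e-06) and *WRKY7* (1.15 ± 0.21, adjusted p = 0.000857) came next.

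Behind these values lay different patterns. *WRKY6* and *WRKY28* fell with TSA in Col-0, by log2 fold changes of -1.80 and -1.87, while in WUS-GR they were at -0.31 and -0.23 and were not called (adjusted p = 0.198 and 0.128). With library totals both were lower in WUS-GR as well (-0.69 and -0.61, adjusted p = 0.0106 and 0.00082), and *WRKY6* also without WUS-GR in DEX replicate 3 (-0.52, adjusted p = 0.016). *WRKY21* instead rose with TSA in both genotypes, by 0.35 in Col-0 and 1.78 in WUS-GR on the log2 scale. *WRKY22* (0.90 ± 0.14, adjusted p = 0.000155) and *WRKY33* (0.78 ± 0.15, adjusted p = 0.00119) had ratios further above Col-0 with TSA. For *WRKY33* the TSA effect in WUS-GR alone was 0.14 ± 0.10 (adjusted p = 0.213). Library totals turned it to -0.25 (adjusted p = 0.0282), and without WUS-GR with TSA replicate 3 it was 0.24 (adjusted p = 0.028), calls in opposite directions.

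On the other side stood *WRKY69* (-1.32 ± 0.33, adjusted p = 0.00708), *WRKY70* (-0.85 ± 0.22, adjusted p = 0.00785) and *WRKY39* (-0.78 ± 0.18, adjusted p = 0.00384). Smaller values were found for *WRKY45* (-0.74 ± 0.23, adjusted p = 0.0221), *WRKY4* (-0.45 ± 0.12, adjusted p = 0.0111) and *WRKY26* (-0.42 ± 0.15, adjusted p = 0.0483). *WRKY69* had 5.55, 4.77 and 6.84 CPM in Col-0 against 6.84, 6.27 and 6.23 CPM in WUS-GR without TSA, where the groups overlapped, and 4.47, 2.44 and 4.06 CPM in Col-0 against 1.12, 1.92 and 1.92 CPM in WUS-GR with TSA, where they did not. *WRKY45* lost its interaction call without Col-0 in DEX replicate 2 or WUS-GR with TSA replicate 2 or 3 (adjusted p = 0.0505 to 0.0661). *WRKY26* lost it in 9 of 12 such fits (adjusted p = 0.0564 to 0.125), with -0.27 without Col-0 with TSA replicate 3, and kept it without Col-0 in DEX replicate 3 or Col-0 with TSA replicate 1 or 2. *WRKY25* (0.43 ± 0.13, adjusted p = 0.018) lost it without WUS-GR with TSA replicate 1 (adjusted p = 0.0598). With library totals *WRKY25*, *WRKY15* (0.50 ± 0.11, adjusted p = 0.00323) and *WRKY20* (0.44 ± 0.12, adjusted p = 0.0129) missed the threshold (adjusted p = 0.511, 0.218 and 0.508).

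The interaction of *WRKY75* was not called (1.14 ± 0.55, adjusted p = 0.132), but it was with DESeq2 (adjusted p = 0.0479) and without Col-0 in DEX replicate 1 (adjusted p = 0.0427). *WRKY18* (0.41 ± 0.22, adjusted p = 0.163), *WRKY40* (0.20 ± 0.17, adjusted p = 0.394), *WRKY29* (0.83 ± 0.33, adjusted p = 0.0701) and *WRKY46* (0.55 ± 0.37, adjusted p = 0.274) were not called, nor were *WRKY17* (-0.01 ± 0.29, adjusted p = 0.985) and *WRKY30* (0.11 ± 0.36, adjusted p = 0.852). For these genes a difference in the WUS effect with TSA was not shown.

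**Figure D4:**
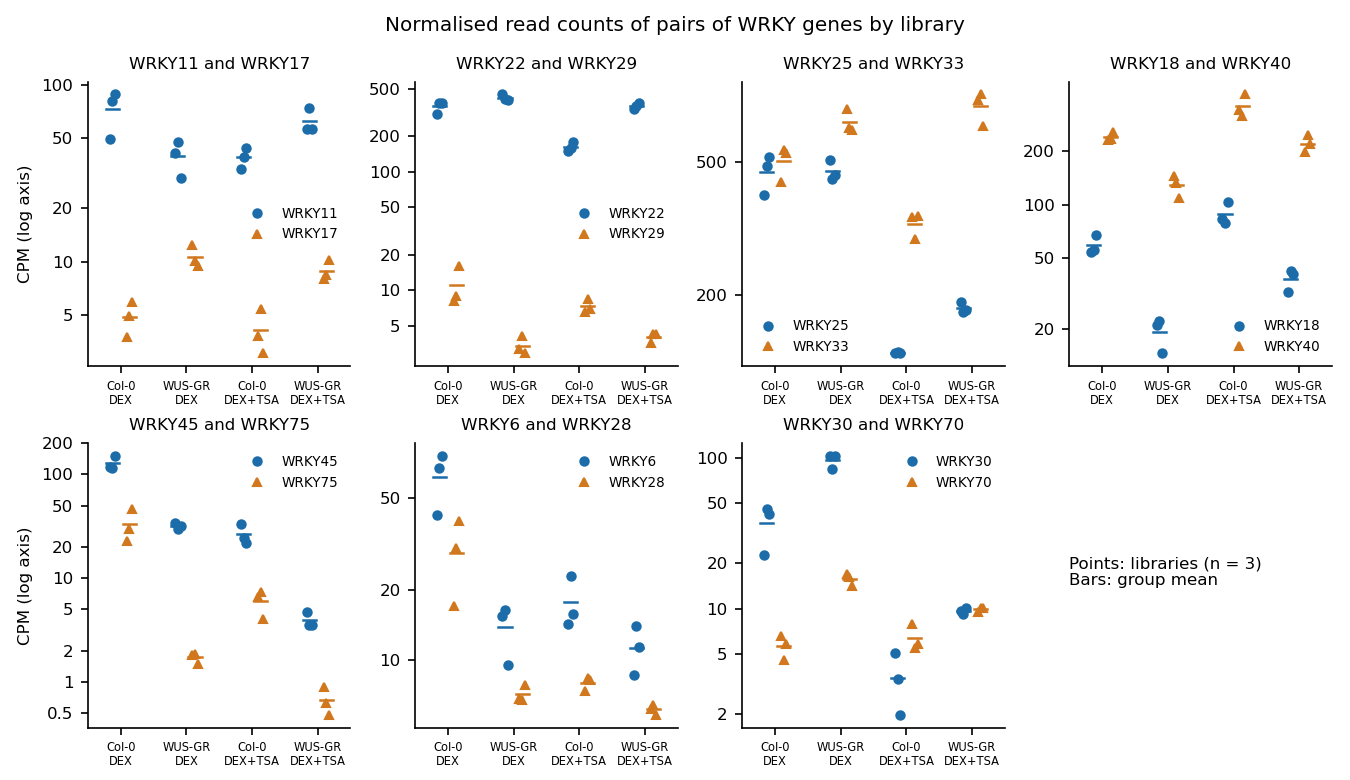
Normalised read counts (CPM, log axis) of 7 pairs of *WRKY* genes in each library of the 4 groups (horizontal axis), with a point per library (n = 3 per group) and a bar for each group mean. In DEX *WRKY11* lies lower and *WRKY17* higher for WUS-GR, both *WRKY18* and *WRKY40* are lower in WUS-GR in either treatment, and *WRKY75* is at or below 1.84 CPM in all WUS-GR libraries.

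Components that act upstream of the family were read from a list of 13 receptor and MAP kinase genes, all tested. In DEX 8 were lower and 3 higher in WUS-GR (28.6% and 29.3% of all genes), with a median log2 fold change of -0.55. With TSA 5 were lower and 1 higher (27.8% and 27% of all genes). The flagellin receptor gene *FLS2* had means of 131 CPM in Col-0 against 30.4 CPM in WUS-GR (log2 fold change -2.08, adjusted p = 6.24e-06). Of the kinase genes that act on *WRKY22*, *WRKY29* and *WRKY33*, *MKK5* (-1.43, adjusted p = 1.1e-05) and *MPK6* (-0.91, adjusted p = 6.88e-06) were lower, whereas *MPK3* (0.99, adjusted p = 1.68e-06) and *MKK4* (0.67, adjusted p = 0.0179) were higher. TSA lowered 7 and raised 4 of the list in Col-0 (32.5% and 31.7% of all genes).

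VQ proteins bind WRKY factors, and 3 of 4 listed VQ genes were tested. *SIB1* and *MKS1*, which encode partners of WRKY33, fell with TSA in Col-0 by log2 fold changes of -2.98 and -2.92 (adjusted p = 2.35e-07 and 4.26e-07). *JAV1*, a repressor of jasmonate defence, was at -3.23 (adjusted p = 2.69e-06). In WUS-GR the same genes were lower by -2.44, -2.98 and -3.23 (adjusted p = 7.06e-09, 2.42e-09 and 2.12e-06). Of all genes, 32.5% were lower with TSA in Col-0 and 38.1% in WUS-GR. *JAV1* rested on 12 to 22 counts in Col-0 and 9 to 24 in WUS-GR with TSA. Between genotypes 1 of the 3 was higher and 0 lower in each treatment. These were *MKS1* in DEX (0.66, adjusted p = 0.000692, 29.3% of all genes higher) and *SIB1* with TSA (0.64, adjusted p = 0.00384, 27% of all genes higher).

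Of 8 genes known as WRKY targets or defence outputs, 6 were tested in DEX, where 5 were lower and 1 higher in WUS-GR (28.6% and 29.3% of all genes). With TSA 3 of 5 tested were lower and 2 higher (27.8% and 27% of all genes). The camalexin gene *PAD3*, a target of WRKY33, was lower (-2.79, adjusted p = 0.000455), while *WRKY33* itself was higher. *ICS1*, the salicylic acid synthesis gene activated by WRKY28, had means of 9.16 CPM in Col-0 against 1.49 CPM in WUS-GR in DEX, and of 7.53 against 12.9 CPM with TSA. Its interaction was 3.39 on the log2 scale (adjusted p = 7.65e-07). *PHO1*, which WRKY6 represses, was lower in WUS-GR together with *WRKY6* (-1.46, adjusted p = 5.35e-05). *NHL10* (-4.15, adjusted p = 5.36e-06) was lower and the flagellin-responsive *FRK1* (0.81, adjusted p = 0.00853) higher. With TSA *FRK1* was lower in WUS-GR (-0.68, adjusted p = 0.0221, interaction -1.46, adjusted p = 0.00498). The ethylene synthesis gene *ACS6* went the other way, lower in DEX (-0.49, adjusted p = 0.00443) and higher with TSA (1.41, adjusted p = 5.67e-07, interaction 1.94, adjusted p = 1.36e-06). *PR1* had 0 counts in all libraries and *CYP71A13* at most 6 in any, so neither was tested.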

How the data were processed

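RNA of whole seedlings was sequenced in 4 groups of 3 libraries, which the labels number as separate samples, and p-values measure the spread between these samples. The authors mapped reads to TAIR10 with HISAT2 and counted them with featureCounts, per the submitters' processing notes, and deposited raw counts per gene without normalization. Annotation release, strand setting and the handling of reads with several positions are not given in the sources used here, so counts of close relatives and of overlapping genes are uncertain. The DEX dose is that of the labels, and the study's methods give a lower one. All columns matched a labelled sample, and 0 were left out. Of 34262 identifiers, 32548 (95%) matched a locus of the RefSeq TAIR10.1 annotation, from which gene positions and upstream sequences were read.

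Counts of all genes were tested with edgeR 4.0.16 (R 4.3.3), with TMM scaling, filterByExpr with a minimum count of 10, quasi-likelihood F-tests (two-sided), Benjamini-Hochberg adjustment over all genes tested and a threshold of 0.05. Each of the 4 simple comparisons used its 6 libraries, and the interaction used all 12. Values after ± and the bars of the fold change figures are standard errors derived from the F-test. Each is the absolute log2 value divided by the square root of F, and can be inexact where the log2 value is near 0. Comparisons with a group in common, and the interaction with each of them, are not independent. Intervals and the floor of 3 counts cover counting error only. Fits were also run on simulated counts in which few genes changed, unlike the data here, so that run did not check the scaling. Figures and tables were made with Python 3.11.15. Alternatives were DESeq2 1.42.0, DESeq2's size factors in edgeR, library totals, no filter or 10 counts in every library, other thresholds, a replicate block, a single fit of all libraries and leaving out each library. Replicate numbers were not taken as pairs.

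The members and gene lists were chosen with earlier results of these data known. The genes named were, per comparison, the 3 largest rises and 3 largest falls among called members whose groups did not overlap, and a fixed list (*WRKY6*, *11*, *17*, *18*, *22*, *23*, *25*, *26*, *29*, *33*, *40*, *45*, *46*, *53*, *54*, *60*, *70* and *75*). Other members are named to account for the family or because their calls changed, and were chosen after their values were seen. *WRKY45* was placed in group IIc from general knowledge, as its protein sequence was not used here.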

Additional observations from a re-analysis of the deposited data

Results flagged for a closer look

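For 16 *WRKY* genes the genotype effect differed between DEX alone and DEX with TSA by edgeR's test of the interaction over 12 libraries (adjusted p under 0.05). On the log2 scale, the ratio of WUS-GR to Col-0 was higher with TSA for *WRKY28* (1.67), *WRKY11* (1.58), *WRKY6* (1.52), *WRKY21* (1.46), *WRKY7* (1.15), *WRKY22* (0.90), *WRKY33* (0.78), *WRKY15* (0.50), *WRKY20* (0.44) and *WRKY25* (0.43). It was lower with TSA for *WRKY69* (-1.32), *WRKY70* (-0.85), *WRKY39* (-0.78), *WRKY45* (-0.74), *WRKY4* (-0.45) and *WRKY26* (-0.42). *WRKY11* was lower in WUS-GR in DEX and higher with TSA (-0.87 and 0.67 log2), and *WRKY70* was higher in both but by less with TSA (1.5 and 0.62 log2). The calls of *WRKY25*, *WRKY26* and *WRKY45* each depended on single libraries, and those of *WRKY15*, *WRKY20* and *WRKY25* on the scaling. The cause of these differences was not tested.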

How the results depend on the processing

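In the order WUS effect in DEX, WUS effect with TSA, TSA effect in Col-0, TSA effect in WUS-GR and interaction, 27, 25, 28, 24 and 16 members were called. Of all genes tested, 57.9%, 54.8%, 64.2%, 73.7% and 31% were called. With a change of at least 2-fold required, 15, 14, 12, 15 and 6 members remained past both limits. The share of all genes past both limits was not computed. DESeq2 called 25, 27, 27, 26 and 18 members, and 9254, 8431, 10437, 12093 and 5410 of all genes. The replicate block called 24, 25, 27, 24 and 17 members, and 9155, 9551, 11313, 12567 and 5721 of all genes. Not all same-numbered libraries deviated together (r from -0.267 to 0.119, own number best in 17 of 36 comparisons), so the numbers were not used as pairs. Leaving out 1 library gave 24 to 27, 23 to 25, 25 to 28, 22 to 27 and 14 to 18 calls among members. Over all genes it gave 8617 to 9680, 7892 to 8906, 9829 to 10752, 11958 to 12414 and 4525 to 5383 calls. Of 2017 alternative values for 149 gene results (120 of them called), 1893 kept direction and side of the threshold, 82 lost the call, 23 gained one and 19 changed sign. All changes of sign were in results without a call. With library totals, log2 values of *WRKY46* in the WUS effect in DEX (0.008), of *WRKY1* (-0.073) and *WRKY48* (-0.181) in the WUS effect with TSA, and of *WRKY1* (-0.191), *WRKY23* (-0.020), *WRKY29* (-0.158) and *WRKY33* (-0.246) in the TSA effect in WUS-GR changed sign. Leaving out 1 library gave log2 values of -0.071 to 0.109 for *WRKY25*, -0.132 to 0.054 for *WRKY46* and -1.945 to 0.776 for *WRKY72* in the WUS effect in DEX, and of -0.081 to 0.204 for *WRKY48* with TSA. It gave -0.243 to 0.022 for *WRKY47* and -0.107 to 0.896 for *WRKY65* in the TSA effect in Col-0, and -0.486 to 0.082 for *WRKY50* in WUS-GR. The cause of these shifts was not tested. Depth limits the 7 members with too few counts to test and *WRKY55*, *WRKY53*, *WRKY8*, *WRKY72* and *WRKY75*, which rest on few reads in at least 1 group. For *WRKY75* this group was WUS-GR with TSA, with 6 to 15 counts per library.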

Other observations

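Of 30 further annotated *WRKY* genes outside the 42, 11 could be tested in DEX, where 4 were higher and 5 lower in WUS-GR (29.3% and 28.6% of all genes). With TSA, 6 of 10 were lower and 0 higher (27.8% and 27% of all genes). *WRKY2* was higher in DEX (1.25, adjusted p = 0.000856) and lower with TSA (-0.84, adjusted p = 0.00288) on the log2 scale, and its interaction was -2.05 (adjusted p = 0.000145). *ABO3* (AT1G66600), also one of these further genes, had means of 16.9 CPM in Col-0 against 0.418 CPM in WUS-GR in DEX (-5.30, adjusted p = 2.1e-07). That fall was larger than the fall of *WRKY75* among the 42. With TSA *ABO3* was lower too (-4.38, adjusted p = 0.000577), with 0 to 1 counts per library in WUS-GR. *WRKY2* and *ABO3* were named after their values were seen.

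Transcripts known to respond quickly to touch, wounding and oxidative stress were read from a list of 8 genes, all tested. In DEX 5 were higher and 2 lower in WUS-GR (29.3% and 28.6% of all genes), and with TSA 7 were higher and 1 lower (27% and 27.8% of all genes). The calmodulin-like gene *CML39* was higher in WUS-GR in DEX (1.85, adjusted p = 1.09e-05) and with TSA (1.93, adjusted p = 1.55e-05), while *ZAT10* was lower in both (-1.81, adjusted p = 2.28e-06, and -0.50, adjusted p = 0.0037). Whether these responses share a source with those of the *WRKY* genes was not tested.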
